A study of Oryza sativa with 12 samples.

Results

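Leaf and root of 1 rice F1 hybrid were set against each other. The comparison took in every array that the labels give to the hybrid, 4 of the 12 arrays of the series: 2 of F1 hybrid leaf at an age of 4 weeks and 2 of F1 hybrid root at an age of 7 days. The hybrid is a cross of the rice cultivars C bao and Jamaica, whose leaves (4 weeks) and roots (7 days) filled the other 8 arrays, 2 for each cultivar and tissue. No label states which cultivar was the mother, how the plants were grown, at which hour they were harvested or how many plants an array stands for. Tissue and age change together in this design, so that a difference between leaf and root cannot be told apart from a difference between 4 weeks and 7 days. Nothing in the labels says that the 2 arrays of a group came from separate plants. The p-values measure the spread between the 2 arrays of a group, shared over all 6 groups of the series, and this spread may be technical. The array, an Affymetrix rice GeneChip, holds 57258 rice probe sets, each a group of short probes for 1 transcript. A signal below is the deposited MAS5 intensity in arbitrary units, and a difference is leaf minus root on the scale of log2(signal + 16), where 1 unit is a factor of 2 and differences of dim probe sets are understated.

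A rice leaf blade is built around photosynthesis: its plastids hold the light-harvesting complexes, the enzymes of carbon fixation and those of photorespiration, and its outer cell layer is coated with wax. A rice root takes up water, nitrogen, phosphate, iron and silicon through transporters in its outer cell layers, grows from a tip of dividing cells, and loosens its walls as cells elongate behind that tip. Many of these tasks are carried out in both organs by different members of 1 gene family, which is why the members of each family are set side by side below.

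The labels were checked first against marker genes. The 11 leaf markers (small subunit of Rubisco, chlorophyll-binding proteins, Rubisco activase, plastocyanin and others) had a mean log2 signal of 12.42 and 12.98 on the leaf arrays, against 7.88 and 8.36 on the root arrays. The 24 root markers (silicon, nitrate, ammonium and phosphate transporters, root-patterning factors) averaged 7.29 and 7.21 on the leaf arrays, against 9.37 and 9.50 on the root arrays. Both lists separated the tissues as labelled. The 2 leaf arrays stood further apart from each other than any other replicate pair of the series: over the 42974 probe sets tested they correlated at r = 0.92 and 9717 probe sets lay more than 2-fold apart, against r = 0.97 and 4698 for the 2 root arrays. The leaf arrays differed in marker lists as well. Genes of dividing cells (63 genes) averaged 9.64 and 8.12 on leaf replicates 1 and 2, against 9.71 and 9.64 on the root arrays; in the parents they stood at 9.42 and 9.56 in C bao leaf and 8.05 and 8.38 in Jamaica leaf. Dehydration genes (11 genes) averaged 8.75 and 11.25 on leaf replicates 1 and 2, against 13.64 and 13.73 on the root arrays, while the 8 parental arrays lay between 7.92 and 8.91. For several genes on these lists, values are given without each leaf array where they are described. Storage proteins of the seed (9 genes) lay between 6.18 and 7.01 on all 4 arrays. In bulk tissue, fewer cells of a type and less RNA per cell cannot be told apart. The part of these list differences in other results was not tested.

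**Figure D1:**
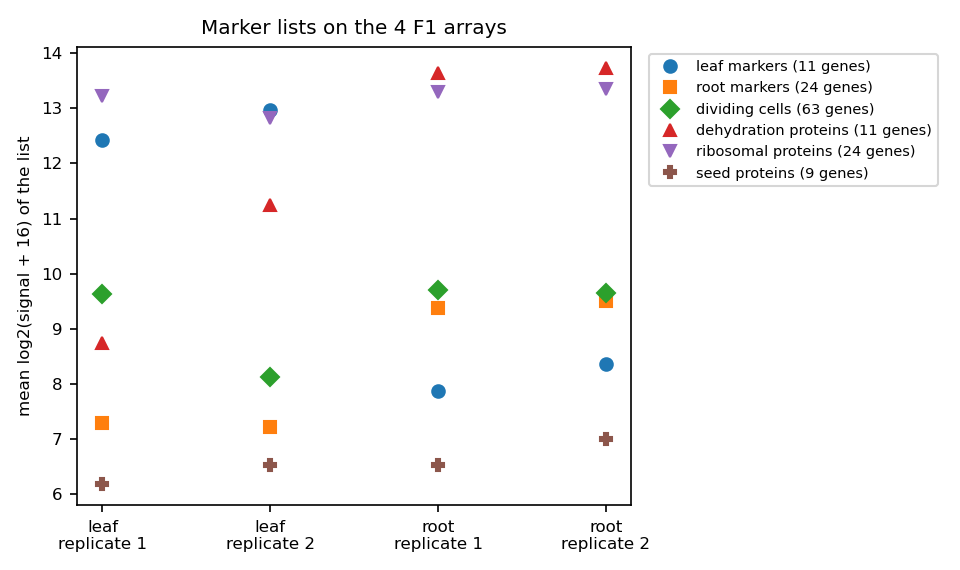
Mean log2(signal + 16) of 6 marker lists (y axis) on each of the 4 F1 hybrid arrays (x axis, leaf replicates to the left of root replicates); each symbol is 1 list on 1 array. Leaf markers are high on both leaf arrays (12.42 and 12.98, against 7.88 and 8.36 in root), while dividing-cell and dehydration genes differ between the 2 leaf arrays.

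Leaf and root of the hybrid differed in 12809 of 42974 probe sets (29.8%) in limma at an adjusted p below 0.05. Of these, 5765 (13.4% of those tested) were higher in leaf and 7044 (16.4%) were lower. The differences were large: 4803 of the higher and 5371 of the lower probe sets differed more than 2-fold, and 737 and 449 more than 16-fold. In every called probe set the 2 leaf arrays lay outside the 2 root arrays, which was so in 64.1% of all probe sets tested (27.1% with leaf above, 37.0% with root above). The median over all probe sets was -0.16, and median centring moved it to 0.06 and the share of calls that were higher in leaf to 58.9%, against 45.0% with the deposited scaling. Calls fell to 8298 without root replicate 1 and to 8133 without root replicate 2, and stood at 14735 without leaf replicate 1 and at 9863 without leaf replicate 2. A group left with 1 array adds nothing to the spread estimate that all 6 groups share. Calls lost or gained without 1 array, here and below, therefore also depend on which pair left that estimate. The standard deviation within the pair was 0.69 for hybrid leaf and 0.43 for hybrid root. Leaf minus root was called in 12884 probe sets in C bao (30.0%) and in 15091 in Jamaica (35.1%). Of the hybrid's calls, 8460 had the same direction in C bao (66.0% of the hybrid's calls and 65.7% of those of C bao) and 9076 in Jamaica (70.9% and 60.1%); 7130 were shared in direction by all 3, and 24 ran against both parents.

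Among named genes, the 12 largest differences towards leaf belonged to photosynthesis, the leaf surface and a few other functions. Genes entered this set only where both leaf arrays lay outside both root arrays, so that this separation belongs to the choice. LTP2-B, a lipid transfer protein, gave 17665 and 27649 on the leaf arrays, against 12.7 and 13.9 on the root arrays, a log2 difference of 9.56 (SE 0.52, adjusted p = 5.09e-07) on the probe set with the largest difference. Its brightest probe set gave 13956 and 15944 in leaf, against 57.4 and 50.3 in root, a difference of 7.74 (SE 0.27). Its neighbour LTP gave 9951 and 15725 in leaf, against 29.9 and 11.7 in root, and the 2 genes are next to each other in the order of protein-coding genes of the reference. Lipid transfer proteins of this kind are carried in the outer cell layer and are associated with the deposition of wax and cutin. LIR1, a light-induced plastid protein that anchors ferredoxin-NADP reductase to thylakoids, gave 22972 and 33252 in leaf, against 23.3 and 162 in root. LFNR1, that leaf reductase itself, gave 12826 and 20470 in leaf, against 83.3 and 122 in root, a difference of 7.11 (SE 0.24, adjusted p = 5.16e-08). FBPase, fructose-1,6-bisphosphatase, gave 2929 and 4892 in leaf, against 4 and 4.8 in root. GDCSH, the H protein of the glycine decarboxylase of photorespiration, gave 7702 and 14829 in leaf, against 52.0 and 2.2 in root. For FBPase, LTP and that first probe set of LTP2-B both root arrays lay under a signal of 32.2. The same held for GLK2, PIP2-7, GER5 and GER8. A group mean had to pass that level for a probe set to be tested. Under it the constant of 16 sets much of the size of the difference.

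The rest of this set was mixed. GLK2, a transcription factor that switches on genes of the chloroplast, gave 3068 and 4807 in leaf, against 4.8 and 6.8 in root, a difference of 7.47 (SE 0.31, adjusted p = 1.41e-07). The germin-like proteins GER5 and GER8, wall-bound proteins linked to defence, differed by 8.97 (SE 0.68) and 7.10 (SE 0.59). Leaf replicate 1 was the higher of the 2 leaf arrays in both, at 17760 and 7323, with 8661 and 2314 in leaf replicate 2. BBD1, a nuclease described in basal defence, differed by 6.97 (SE 0.34). The remaining members were RBCS, a small subunit of Rubisco, at 7.78 (7.10 on its brightest probe set), and the aquaporin PIP2-7.

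On the root side, the 12 largest differences lay between -8.89 and -6.72, and 5 of these genes were transporters or channels. The second largest was Lsi2, which exports silicon towards the root's vascular cylinder: 1 and 1.5 in leaf, against 6034 and 7477 in root, a difference of -8.61 (SE 0.22, adjusted p = 1.04e-08). TIP2-1, a water channel of the vacuole, gave 15.4 and 5 in leaf, against 9766 and 9693 in root. Nrat1, which takes aluminium into root cells, gave 27.3 and 3.6 in leaf, against 4624 and 4444 in root. The metallothionein MT-1-4b, a small metal-binding protein, gave 136 and 47.8 in leaf, against 20077 and 30721 in root. In all of these genes both leaf arrays lay far under both root arrays. PRX112, a class III peroxidase of the cell wall, differed by -6.72 (SE 0.48), and ILL3, which belongs to a family of hydrolases of auxin conjugates, by -7.92 (SE 0.61). The sets of leaf and root signals are shown gene by gene in the plot of signals.

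**Figure D2:**
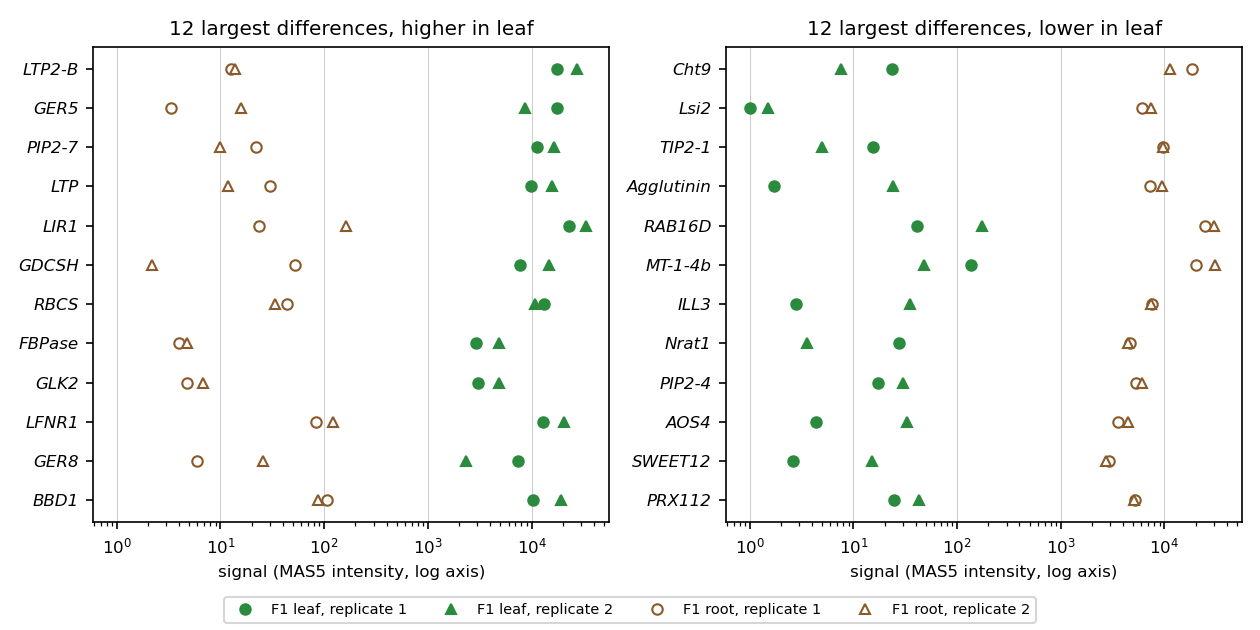
Signals of the 12 named genes with the largest differences in each direction, on a log axis (MAS5 intensity); filled green symbols are the 2 leaf arrays and open brown symbols the 2 root arrays, circles replicate 1 and triangles replicate 2. In the left panel every leaf symbol lies to the right of both root symbols (LTP2-B at 17665 and 27649 against 12.7 and 13.9), and in the right panel the order is turned (Lsi2 at 1.0 and 1.5 against 6034.5 and 7477). This separation was a condition of the choice of genes.

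Gene lists were then read with 1 probe set per gene, against a background of 17334 genes of which 18.3% were higher in leaf, 23.9% were lower and the median was -0.17. Both leaf arrays lay above both root arrays in 31.8% of these genes and below them in 42.1%. The lists were chosen with earlier results of these arrays known, so that their counts are descriptions. The shares of 18.3% and 23.9% are the background for every list count below. Of the lists on plastids, 11 of 12 genes of chlorophyll synthesis, 8 of 11 of light harvesting and electron transport, and 10 of 15 of plastid gene expression and development were higher in leaf. At the other end, 9 of 15 genes of root development, 12 of 23 aquaporins and 12 of 22 genes of nitrogen uptake and assimilation were lower in leaf, and 0, 4 and 6 were higher.

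**Figure D3:**
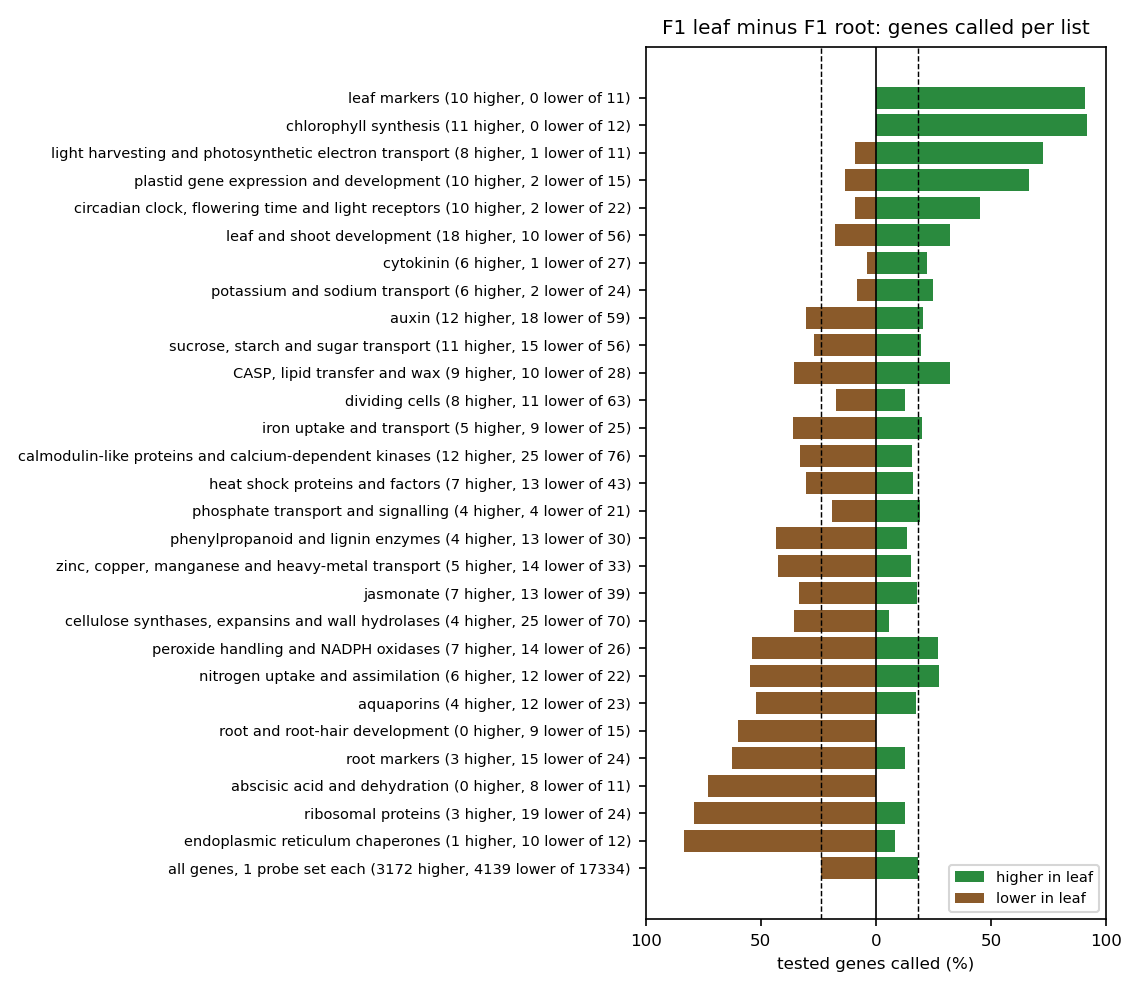
Percent of tested genes called higher in leaf (green, right of 0) and lower in leaf (brown, left of 0) for 28 gene lists and for all genes; dashed lines mark the shares over all genes (18.3% higher and 23.9% lower). Plastid lists reach to the right, and root, ribosomal and chaperone lists to the left.

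Photosynthetic genes were higher in leaf with few exceptions. Medians were 3.87 for light harvesting and electron transport, 2.46 for chlorophyll synthesis and 2.12 for plastid development. PSAH, a subunit of photosystem I, gave 12606 and 24409 in leaf, against 306 and 516 in root. petC, the Rieske protein of the cytochrome b6f complex, gave 11549 and 22747 in leaf, against 415 and 409 in root, a difference of 5.24 (SE 0.26, adjusted p = 3.78e-07). CAB2R, a chlorophyll a/b-binding protein, gave 23596 and 31249 in leaf, against 1554 and 3278 in root. PETE, plastocyanin, gave 22478 and 29682 in leaf, against 1293 and 2358 in root. Of the 2 other ferredoxin-NADP reductase genes, FNR (LOC4334338) ran the other way from LFNR1, with 1775 and 1166 in leaf, against 6082 and 6489 in root (-2.11, SE 0.25, adjusted p = 0.000115). The other FNR (LOC4342399) differed by -0.06 and did not pass.

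In chlorophyll synthesis, CHLH, the large subunit of magnesium chelatase, gave 1999 and 2401 in leaf, against 119.5 and 192 in root (3.71, SE 0.28, adjusted p = 4.08e-06). PORB, the light-dependent protochlorophyllide reductase, gave 3276 and 4178 in leaf, against 313 and 444 in root. Earlier steps are shared with haem: GSA, which makes aminolevulinic acid, differed by 2.52 (SE 0.21), HEMD by 0.98 (SE 0.28), and HEMB, at 0.76 (SE 0.42), did not pass. The call of HEMD was lost without leaf replicate 1 (0.72, adjusted p = 0.0919), without root replicate 1 (0.84, adjusted p = 0.131) and without root replicate 2 (1.12, adjusted p = 0.0544). Enzymes of chlorophyll breakdown were higher in leaf as well, NOL and NYC1, which reduce chlorophyll b, by 2.63 (SE 0.26) and 2.38 (SE 0.34), and RCCR1, which acts further down, by 2.25 (SE 0.26). SGR, which starts chlorophyll loss in ageing leaves, and the senescence protease SAG12 stood at -0.81 and -0.68 and did not pass.

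GLK1, the paralogue of GLK2, was higher in leaf by 2.12 (SE 0.35, adjusted p = 0.000985), on signals of 506 and 613 against 87.4 and 151 in root. OsSig2B, a sigma factor of the plastid RNA polymerase, gave 641 and 1782 in leaf, against 54.6 and 6 in root. The plastid genes AL1 and ASL1, named for the pale mutants that lack them, differed by 4.28 (SE 0.42) and 3.55 (SE 0.23). TOC75, the import channel that every plastid type uses, was higher by 0.67 (SE 0.16), the smallest amount among the genes called higher on the plastid list, and lost its call without root replicate 1 (0.62, adjusted p = 0.0707).

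Photorespiration showed a division between paralogues. The photorespiratory oxidases GLO1 and GLO5 were higher in leaf, GLO1 with 8315 and 20864 against 139 and 166 in root and GLO5 with 9556 and 16594 against 503 and 474. GLO4 was lower in leaf, with 1089.8 and 1372 against 3139 and 3322 in root (-1.39, SE 0.16, adjusted p = 0.000105). GLO3 was lower, at -1.48 (SE 0.36), a call that was lost without leaf replicate 2 (-0.94, adjusted p = 0.0724) or root replicate 1 (-1.39, adjusted p = 0.0705). A second probe set of GLO1 was called in the opposite direction, so that GLO1 rests on the brighter of its probe sets. Among carbon fixation genes, rca, the Rubisco activase, gave 10965 and 20275 in leaf, against 244 and 424 in root, and R5P3E, a pentose phosphate epimerase, differed by 3.23 (SE 0.30). RBCS1, a Rubisco small-subunit gene known from other organs than the leaf blade, stood at 0.52 and did not pass.

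Of the 22 genes of clock, flowering time and light perception, 10 were higher in leaf and 2 were lower (median 0.97). All 4 pseudo-response regulators of the clock were higher, by 1.46 to 2.84 log2 units, PRR95 with 5781 and 9286 in leaf, against 983 and 1044 in root. GI (GIGANTEA) gave 12219 and 16924 in leaf, against 1630.1 and 2286 in root (2.89, SE 0.22, adjusted p = 5.14e-06). PCL1, a clock factor of the evening, gave 9589 and 16425 in leaf, against 422 and 529 in root (4.68, SE 0.28, adjusted p = 1.02e-06). CCA1, the clock factor of dawn, was the opposite, with 994 and 1188 in leaf, against 5003 and 5442 in root (-2.25, SE 0.17, adjusted p = 4.55e-06). Both parents had the same order for CCA1 (-2.62 in C bao and -1.83 in Jamaica). The blue-light receptors PHOT1A and PHOT2 were higher in leaf by 2.75 (SE 0.27) and 3.38 (SE 0.21). Among phytochromes, the red-light receptors, phyC and PhyB were higher by 2.65 (SE 0.25) and 1.56 (SE 0.23). PHYA was lower, at -0.64 (SE 0.18, adjusted p = 0.0228), and its call was lost without leaf replicate 2 (-0.46, adjusted p = 0.116), without root replicate 1 (-0.55, adjusted p = 0.144) and without root replicate 2 (-0.73, adjusted p = 0.0603), which left CCA1 as the single lower gene of the list without either root replicate.

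Water channels of 1 subfamily lay on both sides. Of 23 aquaporins, 4 were higher in leaf and 12 were lower. PIP2-7 gave 11280 and 16512 in leaf, against 21.9 and 9.8 in root (8.77, SE 0.30, adjusted p = 5.16e-08), while PIP2-4, of the same subfamily, gave 17.3 and 30.2 in leaf, against 5289.7 and 6103 in root (-7.18, SE 0.31, adjusted p = 1.68e-07). PIP2-5 gave 72.5 and 70.3 in leaf, against 5551 and 7034 in root. PIP2-4, PIP2-5 and PIP2-1 are consecutive protein-coding genes in the reference, and all 3 were lower in leaf, PIP2-1 at -1.27 (SE 0.35) with high signals in both organs (16258 and 6499 in leaf, against 22653 and 27079 in root). All 3 PIP1 genes were lower in leaf, PIP1-3 with 338 and 1078 against 12267 and 15635 in root, but 1 of 3 was called without leaf replicate 2, root replicate 1 or root replicate 2. The call of PIP2-1 was lost without leaf replicate 2 (-0.61, adjusted p = 0.111), without root replicate 1 (-1.40, adjusted p = 0.0619) and without root replicate 2 (-1.14, adjusted p = 0.12). In the vacuolar membrane, TIP4-1 was higher in leaf, with 16428 and 19434 against 4108 and 4848 in root, and TIP2-1 was lower, at -7.74 on its brightest probe set. Close relatives in this family share sequence, and the signal of 1 probe set may include a near copy.

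The silicon pathway runs in at Lsi1, out at Lsi2 and, in leaf sheaths and blades, out of the xylem through Lsi6. Lsi1 gave 181 and 401 in leaf, against 12447 and 15395 in root (-5.59, SE 0.31, adjusted p = 6.02e-07), so that both uptake genes were lower in leaf. Lsi6 gave 1728 and 3807 in leaf, against 1816 and 1595 in root, and its difference of 0.59 (SE 0.32) did not pass.

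Nitrogen genes were called in both directions, in uptake as in assimilation. For uptake, AMT1-2, an ammonium transporter, gave 104 and 52.7 in leaf, against 1578 and 1128 in root (-3.90, SE 0.36, adjusted p = 1.7e-05), and the nitrate transporter NRT2.3 gave 23.8 and 44.5 in leaf, against 445 and 349 in root (-3.06, SE 0.41, adjusted p = 0.00025). Over the 8 AMT genes 4 were lower in leaf, 1 was higher and 3 did not pass. For assimilation, the plastid glutamine synthetase GLN2 gave 10916 and 16613 in leaf, against 777 and 795 in root, whereas the 3 cytosolic forms were lower in leaf. GLN1-2 gave 1892 and 4011 in leaf, against 13764 and 15349 in root (-2.39, SE 0.28, adjusted p = 0.000113). GLN1-1 gave 6054 and 3388 in leaf, against 15741 and 16679 in root, and GLN1-3 differed by -4.59 (SE 0.67). Fd-GOGAT, the ferredoxin-dependent glutamate synthase of plastids, was higher in leaf by 2.02 (SE 0.24). All 3 glutamate dehydrogenases were lower in leaf, with differences between -1.99 and -1.21. GLT2, annotated as a glutamate synthase, gave 3428 and 8089 in leaf, against 61.4 and 32.0 in root (6.44, SE 0.62, adjusted p = 2.5e-05). DUR3, a urea transporter placed among the root markers, was higher in leaf, with 286 and 382 against 16.2 and 23.9 in root; its difference was -1.46 in C bao and 2.55 in Jamaica.

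For phosphate, 4 of 21 genes were higher in leaf, 4 were lower and 13 did not pass, beside 18.3% higher and 23.9% lower over all genes. PHO1-2, which loads phosphate into the xylem, gave 508 and 252 in leaf, against 6788 and 7387 in root (-4.24, SE 0.37, adjusted p = 1.16e-05). SPX1 and SPX2, which sense phosphate status, were higher in leaf by 1.42 (SE 0.27) and 2.18 (SE 0.38). PTH1-2, a phosphate transporter of the root, gave 55.2 and 52.5 in leaf, against 378 and 434 in root.

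Of 25 iron genes, 5 were higher in leaf and 9 were lower. NAS1 and NAS2, neighbouring genes for nicotianamine synthase that begin the making of the iron chelators of grasses, gave 9344 and 448 (NAS1) and 8789 and 805 (NAS2) on leaf replicates 1 and 2, against 22073 and 19181 (NAS1) and 18312 and 19779 (NAS2) in root. Leaf replicate 1 was far the higher leaf array for both genes. The NAS1 difference of -3.31 (SE 1.01) lost its call without leaf replicate 2 (-1.14, adjusted p = 0.0943) or either root replicate (-3.20, adjusted p = 0.123 and -3.41, adjusted p = 0.106). NAS2 differed by -2.82 (SE 0.77), and the call was lost without root replicate 1 (-2.88, adjusted p = 0.0749) and root replicate 2 (-2.77, adjusted p = 0.0863). Uptake of the iron chelate goes through YSL15, which gave 252 and 139.7 in leaf, against 816 and 1031 in root (-2.19, SE 0.41, adjusted p = 0.00217). YSL16 was higher in leaf, by 1.52 (SE 0.20, adjusted p = 0.000203); this relative moves iron within the plant. The 2 vacuolar iron transporters were split: VIT2 gave 69.0 and 102 in leaf, against 1360.4 and 2113 in root (-4.09, SE 0.37, adjusted p = 1.5e-05), while VIT1 was higher by 1.17 (SE 0.25) and lost its call without root replicate 1 (1.04, adjusted p = 0.0507). The iron list stood at 4 higher and 5 lower without root replicate 1 and 5 higher and 5 lower without root replicate 2.

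Of the 6 NRAMP metal transporters, 4 were higher in leaf and 2 were lower. Nramp1 gave 8940.5 and 16106 in leaf, against 811 and 628 in root (4.04, SE 0.30, adjusted p = 3.91e-06), and NRAMP3 gave 444 and 565 in leaf, against 1418 and 1748 in root (-1.62, SE 0.27, adjusted p = 0.0011). Without either root replicate 1 NRAMP gene was called lower. Of 7 metallothioneins 6 were lower in leaf and none was higher, against 2 lower without root replicate 2. Among the 20 HAK potassium transporters 6 were higher in leaf, led by HAK22 with 833 and 1054 against 50.9 and 27.6 in root, and 2 were lower (5 without leaf replicate 2), of which HAK1, a transporter of potassium uptake, gave 2719 and 2793 in leaf, against 6773 and 6615 in root (-1.28, SE 0.22, adjusted p = 0.00128).

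Developmental regulators were called in both directions. YABBY genes, which mark lateral organs of the shoot, gave 3 of 6 higher in leaf and none lower. YAB1 gave 4157 and 1689 in leaf, against 4.6 and 7.6 in root (6.92, SE 0.45, adjusted p = 1.75e-06), with the root arrays near the floor. YAB6 gave 1026 and 945 in leaf, against 6 and 31.1 in root. Of 7 GL2-type homeobox genes, regulators of the epidermis, 4 were higher in leaf and 1 was lower, which was not called without leaf replicate 1, root replicate 1 or root replicate 2; GL2-1 gave 2857 and 2578 in leaf, against 40.8 and 106 in root (5.03, SE 0.40, adjusted p = 5.92e-06). LG1, which places the ligule between sheath and blade, gave 318 and 238 in leaf, against 4.2 and 20.0 in root.

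KNOX homeobox genes, only some of which keep cells undetermined and are shut off in leaf blades, were mixed: 3 of 9 were higher in leaf and 2 were lower. Fewer were called higher without root replicate 1. OSH71 gave 40.3 and 15.5 in leaf, against 3885 and 4977 in root (-6.71, SE 0.32, adjusted p = 2.94e-07), and OSH6 gave 41.8 and 5.5 in leaf, against 716 and 849 in root. The higher ones were HOS59, by 2.04 (SE 0.26), OSH45, by 0.71 (SE 0.23), and HOS58, by 0.70 (SE 0.16). Of 23 HOX genes, 5 were higher in leaf, 6 were lower and 12 did not pass. Among them hox14 was dim in leaf at 1.5 and 2.1, against 396 and 350.5 in root. Of 19 MADS-box factors, 3 were higher and 3 were lower, beside 18.3% higher and 23.9% lower over all genes. MADS22 gave 8495 and 7877 in leaf, against 377 and 357 in root (4.42, SE 0.21, adjusted p = 2.94e-07), and MADS27 gave 36.7 and 30.7 in leaf, against 1838 and 1887 in root (-5.24, SE 0.28, adjusted p = 5.27e-07). Root development genes gave 9 of 15 lower in leaf. RAA1, which acts in root growth, gave 197 and 166 in leaf, against 5755 and 5717 in root (-4.87, SE 0.22, adjusted p = 2.38e-07). OsCASP1, which builds the barrier strip of the root's endodermis, gave 10.6 and 26.2 in leaf, against 1432 and 1652 in root. QHB, a factor of the root's quiescent centre, was dim in both organs, with 46.8 and 6.9 in leaf, against 176 and 211 in root.

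**Figure D4:**
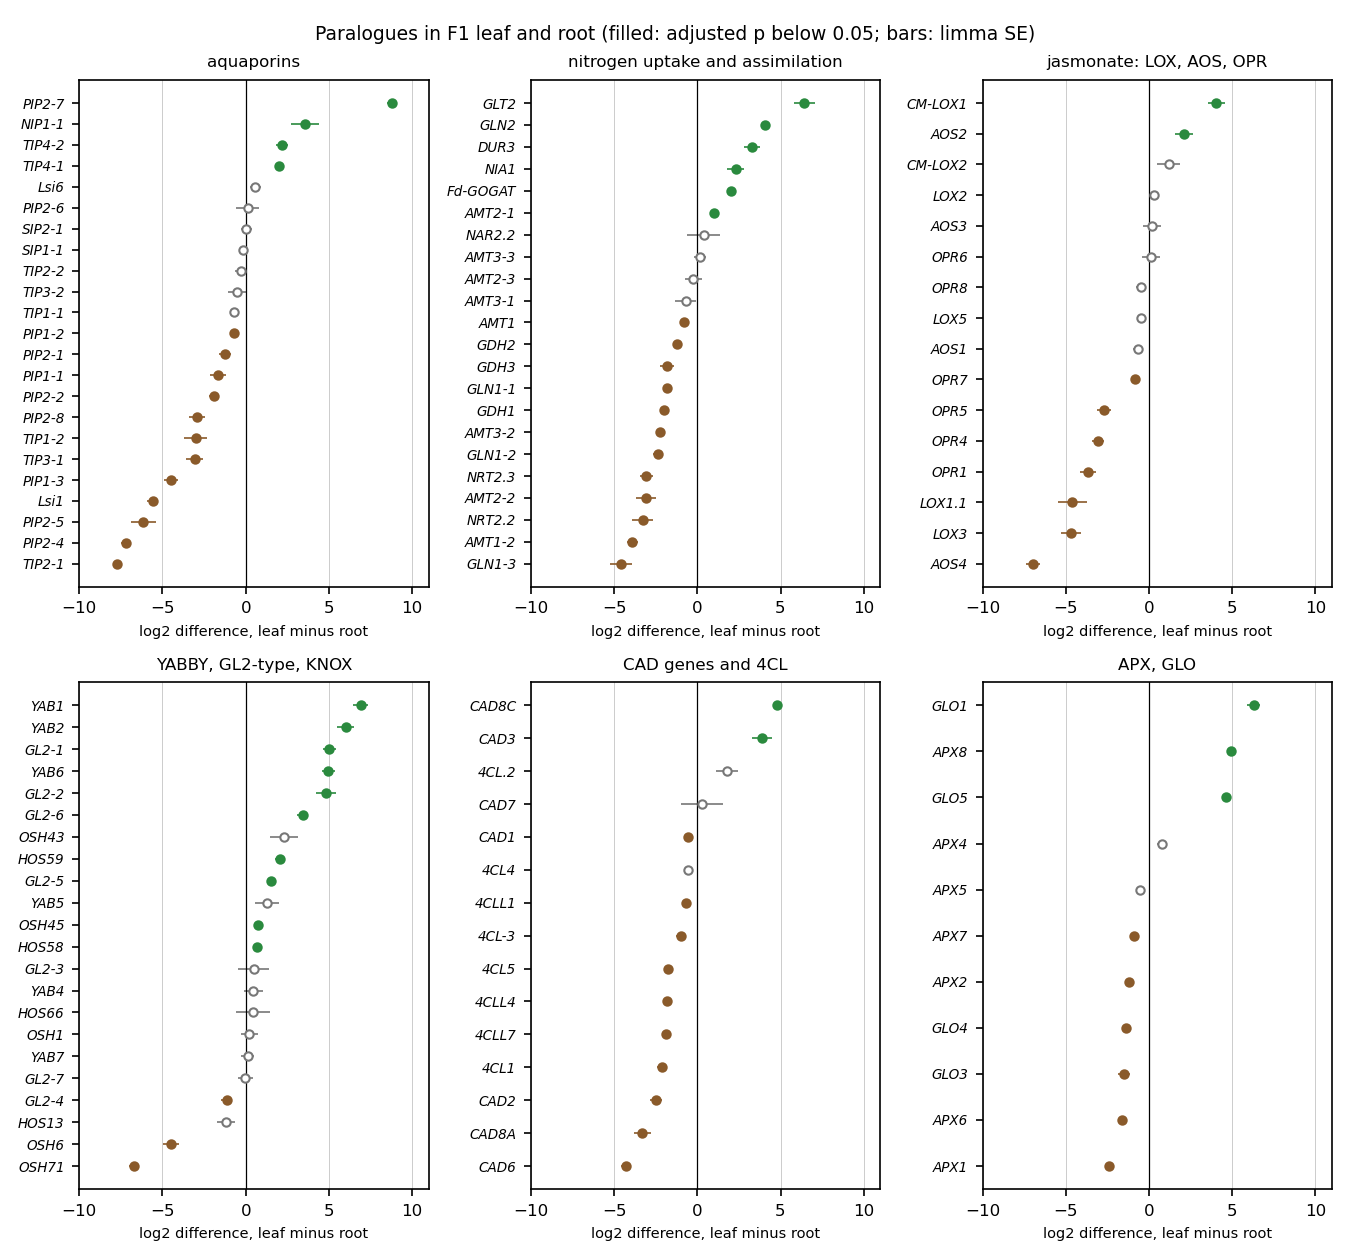
Log2 difference, leaf minus root (x axis), of the members of 6 gene groups (1 row per gene; bars are limma standard errors; filled symbols passed at an adjusted p below 0.05, green higher and brown lower in leaf). Each panel holds called members on both sides of 0, among them PIP2-7 at 8.77 and PIP2-4 at -7.18.

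Of 70 cell wall genes, 4 were higher in leaf and 25 were lower, and the median was -1.06. Of 25 expansins, proteins that loosen walls in growing cells, 13 were lower in leaf and 1, EXLA1, was higher, against 1 higher and 20 lower without leaf replicate 1 and 3 higher and 8 lower without leaf replicate 2. EXP3 gave 4 and 11.2 in leaf, against 2277 and 2247 in root (-6.61, SE 0.39, adjusted p = 9.02e-07). EXPB6, EXPB2, EXPB3 and EXPB4 are consecutive genes in the reference. EXPB6 gave 395 and 278 in leaf, against 10313 and 11402 in root, and EXPB2 gave 170.3 and 53.1 in leaf, against 5170.4 and 5022 in root. EXPB3 was lower, at -1.20 (SE 0.37), a call lost without leaf replicate 2 (-0.69, adjusted p = 0.205), without root replicate 1 (-1.21, adjusted p = 0.111) and without root replicate 2 (-1.19, adjusted p = 0.12), and EXPB4, at -1.55 (SE 0.58), did not pass. The endoglucanase GLU5 gave 25.7 and 6.2 in leaf, against 2930 and 2868 in root (-6.58, SE 0.34, adjusted p = 4.19e-07). The wall list depended on the leaf array: 38 were lower and 2 higher without leaf replicate 1, and 19 were lower and 6 higher without leaf replicate 2, beside the dividing-cell means of 9.64 and 8.12 on those arrays, and 2 were higher without either root replicate. For dividing cells themselves, 8 of 63 genes were higher and 11 were lower, beside 18.3% higher and 23.9% lower over all genes. These counts moved with each hybrid array left out, and the lower ones moved most without leaf replicate 1. PCNA, the sliding clamp of DNA replication, gave 1375 and 492 in leaf, against 3334 and 3088 in root (-1.94, SE 0.40, adjusted p = 0.00377), and differed by -2.67 without leaf replicate 1 and -1.21 without leaf replicate 2. CYCA1-4, a cyclin, was higher in leaf, with 651 and 838 against 301 and 255 in root, by 1.54 without leaf replicate 1 and 1.19 without leaf replicate 2. Among 16 cyclins it was the only member called. The other 15 did not pass, and the median of the 16 was -0.74, with differences between -3.16 and 1.36.

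In the phenylpropanoid pathway, which makes lignin and flavonoids, 4 of 30 genes were higher in leaf and 13 were lower. Alcohol dehydrogenases of the CAD family were split: CAD8C gave 5886 and 7997 in leaf, against 248 and 211 in root (4.81, SE 0.22, adjusted p = 2.33e-07), and CAD2, the main lignin enzyme of the family, gave 3678 and 3013 in leaf, against 17791 and 19524 in root (-2.48, SE 0.36, adjusted p = 0.00046). CAD8A gave 1056 and 224 in leaf, against 4987 and 5035 in root. None of the 8 genes named 4CL or 4CLL was higher in leaf and 6 were lower. Of 22 CASP-like genes, 6 were higher in leaf (3 without root replicate 1) and 9 were lower; OsCASPL2A1 gave 6618 and 4354 in leaf, against 162 and 134 in root, and OsCASPL1U3 gave 616 and 386 in leaf, against 6515 and 6234 in root.

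Some genes of sugar export and starch were higher in leaf. TPT, which sends triose phosphate out of the chloroplast, gave 14274 and 19403 in leaf, against 1694 and 2073 in root (3.14, SE 0.20, adjusted p = 1.66e-06). SUT1, the sucrose carrier of phloem loading, gave 2522 and 2669 in leaf, against 419 and 225 in root (3.01, SE 0.26, adjusted p = 1.08e-05). Its paralogues SUT2, SUT4 and SUT5 were lower in leaf, at -0.70 (SE 0.19), -1.09 (SE 0.21) and -1.71 (SE 0.50). AGPS2, the small subunit of the enzyme that commits sugar to starch, gave 4016 and 3556 in leaf, against 645 and 468 in root. The starch genes GBSS1, SSII-3 and SSII-1, at 1.21, 0.05 and -0.65, did not pass. SS1, also on the sugar and starch list, was lower in leaf, at -1.88 (SE 0.30, adjusted p = 0.000753 in limma). Of 12 SWEET sugar transporters, 3 were higher in leaf, 2 were lower and 7 did not pass. The largest called rise was that of SWEET4, at 1.35 (SE 0.25). On the other side, the sugar exporter SWEET14 gave 509 and 346 in leaf, against 5428 and 3996 in root (-3.42, SE 0.47, adjusted p = 0.000325), and SWEET12 gave 2.6 and 15.0 in leaf, against 2921 and 2709 in root. Trehalose phosphatases, which complete the making of trehalose, were lower in leaf in 4 of 7 cases and higher in none (1 without leaf replicate 2); TPP2 gave 234 and 233 in leaf, against 1828 and 1396 in root. Over the whole list of 56 genes, 11 were higher and 15 were lower, beside 18.3% higher and 23.9% lower over all genes.

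Of 39 jasmonate genes, 7 were higher in leaf and 13 were lower, with 4 higher without either leaf replicate and 2 without either root replicate. The plastid lipoxygenase CM-LOX1 was higher in leaf, with 1362 and 1764 against 92.6 and 66.4 in root (4.05, SE 0.50, adjusted p = 0.000137), and LOX3 was lower, with 41.3 and 6.8 against 884 and 951 in root (-4.69, SE 0.60, adjusted p = 0.000192). AOS4, a relative of allene oxide synthase, gave 4.4 and 33.1 in leaf, against 3544 and 4439.8 in root (-6.98, SE 0.43, adjusted p = 1.19e-06), and AOS2 was higher by 2.13 (SE 0.54), a call lost without leaf replicate 1 (1.82, adjusted p = 0.0538), root replicate 1 (2.06, adjusted p = 0.0723) or root replicate 2 (2.19, adjusted p = 0.0594). Oxophytodienoate reductases were lower in leaf in 4 of 6 cases and higher in none. OPR5, OPR4 and OPR1 lie within 4 consecutive genes of the reference. OPR1 gave 238 and 987 in leaf, against 6522 and 6353 in root, OPR4 552 and 487 against 4264 and 4648, and OPR5 1105 and 912 against 6503 and 6977. Of 12 JAZ repressors, 4 were lower and none was higher.

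For auxin, 12 of 59 genes were higher in leaf (7 without root replicate 1) and 18 were lower. PIN2, which carries auxin out of root tip cells, gave 4.1 and 34.0 in leaf, against 1098 and 882 in root (-4.98, SE 0.43, adjusted p = 1.06e-05). GH3.2, an enzyme that conjugates auxin, gave 118 and 168 in leaf, against 2282 and 2827 in root (-4.03, SE 0.45, adjusted p = 7.32e-05). The repressors of the IAA family lay on both sides, 5 higher and 8 lower of 25, beside 18.3% higher and 23.9% lower over all genes. IAA10 gave 4180.4 and 4196 in leaf, against 978 and 963 in root, and IAA12 gave 1027 and 476 in leaf, against 6582 and 6181 in root. For cytokinin, 5 of 8 LOG genes, which release the active hormone, were higher in leaf and none was lower; LOGL5 gave 1488 and 2346 in leaf, against 511 and 410.1 in root (1.99, SE 0.24, adjusted p = 0.000114). For gibberellin, the first cyclases CPS1 and ks1 were higher in leaf by 2.02 (SE 0.36) and 2.97 (SE 0.32). GA20OX2, the enzyme altered in semi-dwarf rice, was higher by 2.79 (SE 0.56), and its paralogue GA20OX3 gave 726 and 703 in leaf, against 1941 and 2230.4 in root (-1.52, SE 0.18, adjusted p = 9.32e-05).

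The genes for momilactones, diterpene defence compounds that rice roots release, were lower in leaf as a block of neighbours. CPS4, CYP99A3, OsMAS, DTS2 and CYP99A2 lie within 6 consecutive genes of the reference. CPS4, the first cyclase, gave 56.5 and 5.3 in leaf, against 1085 and 823 in root (-4.61, SE 0.67, adjusted p = 0.000436). CYP99A3, an oxidase of the pathway, gave 139 and 27.0 in leaf, against 2096 and 1611 in root. OsMAS, the momilactone A synthase, was lower, at -3.05 (SE 0.78) and DTS2 at -2.81 (SE 0.82); OsMAS lost its call without root replicate 1 (-2.63, adjusted p = 0.0961), and DTS2 without leaf replicate 2 (-1.95, adjusted p = 0.161) and either root replicate (-2.87, adjusted p = 0.096 and -2.76, adjusted p = 0.11). CYP99A2 gave 77.8 and 48.3 in leaf, against 813 and 869.6 in root. In the parents CPS4 differed by -3.58 in C bao and -7.43 in Jamaica, and DTS2 by -0.24 and -4.05.

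A second diterpene cluster, around DTC1, differed among its members. Of 5 genes within 6 consecutive genes, DTC1 and CYP71Z6 were higher in leaf, CYP76M5 was lower, and CYP76M8 and CYP71Z7 did not pass. DTC1, a cyclase, gave 346 and 1065 in leaf, against 80.4 and 123 in root, and was 4.46 in C bao and -4.91 in Jamaica; its call was lost without leaf replicate 2 (1.64, adjusted p = 0.0966) and root replicate 1 (2.17, adjusted p = 0.0873). CYP71Z6, at 2.53 (SE 0.58), lost its call without root replicate 2 (1.72, adjusted p = 0.0717), and CYP76M5, at -1.65 (SE 0.56), without leaf replicate 1 (-1.37, adjusted p = 0.158), without leaf replicate 2 (-1.93, adjusted p = 0.0698) and without root replicate 1 (-1.06, adjusted p = 0.295). Chitinases, which attack fungal walls, were divided, 4 higher and 4 lower of 11, against 2 higher and 5 lower without leaf replicate 1 and 2 higher and 2 lower without root replicate 2; chia4a gave 2894 and 486 in leaf, against 33.2 and 45.2 in root, and Cht9 gave 23.4 and 7.6 in leaf, against 18386 and 11434 in root.

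Dehydration genes were lower in leaf than in root in 8 of 11 cases and higher in none, with a median of -3.12 in the hybrid, -0.01 in C bao and -0.21 in Jamaica. Without leaf replicate 1 the count was 5 and the median -2.33, and without leaf replicate 2 they were 8 and -5.08; 4 were called without either root replicate, at medians of -3.14 (replicate 1 left out) and -3.10 (replicate 2 left out). RAB16D, RAB16C, RAB16B and RAB21 are 4 consecutive genes for dehydrins, proteins of drying cells and seeds. RAB16D gave 40.7 and 173 in leaf, against 24678 and 29964 in root (-8.04, SE 0.53, adjusted p = 1.81e-06), and differed by -7.17 without leaf replicate 1 and -8.91 without leaf replicate 2. RAB16C gave 122 and 2232 on leaf replicates 1 and 2, against 15137 and 15686 in root, a difference of -4.79 (SE 0.97, adjusted p = 0.00366) that was -2.78 without leaf replicate 1 and -6.80 without leaf replicate 2. RAB16B gave 104 and 5800 in leaf, against 18387 and 15137 in root, and lost its call without leaf replicate 1 (-1.52, adjusted p = 0.0506) or either root replicate (-4.18, adjusted p = 0.119 and -4.46, adjusted p = 0.101). Every one of these leaf arrays was below the root arrays, with leaf replicate 2 the higher of the pair. RAB21 gave 1047 and 25311 in leaf, against 30332 and 42336 in root, and its difference of -2.79 (SE 1.50) did not pass. LEA19, of the same list, gave 50.4 and 13057 in leaf, against 15514 and 14658 in root. Its difference of -4.02 (SE 1.85) did not pass, nor did that of Dhn1, at -0.17 (SE 0.34). EM, a late embryogenesis protein, gave 247 and 773 in leaf, against 3889 and 4005 in root, and differed by -3.12, by -2.33 without leaf replicate 1 and by -3.91 without leaf replicate 2.

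Of 7 ascorbate peroxidases, which remove hydrogen peroxide, 1 was higher in leaf (2 without leaf replicate 1) and 4 were lower. APX8, the ascorbate peroxidase of thylakoids, gave 7176 and 12536 in leaf, against 277 and 304 in root (4.96, SE 0.26, adjusted p = 4.89e-07). The cytosolic enzymes APX1 and APX2 were lower in leaf, APX1 with 4551 and 2767 against 17940 and 20242 in root (-2.42, SE 0.23, adjusted p = 1.97e-05) and APX2 with 9037 and 9114 against 19766 and 22459. APX6 and APX7 were lower, at -1.60 (SE 0.23) and -0.90 (SE 0.22), while APX4, at 0.78 (SE 0.28), and APX5, at -0.53 (SE 0.23), did not pass. R1C-Prx, a peroxiredoxin known from seeds, gave 44.8 and 51.0 in leaf, against 4272 and 2689.8 in root. Glutathione transferases, which attach glutathione to toxic compounds, were lower in 4 of 6 cases; GSTZ5 gave 2353 and 3278 in leaf, against 10369 and 12646 in root. Adh2, an alcohol dehydrogenase of fermentation, gave 1240.3 and 226 in leaf, against 10463 and 11570 in root (-4.32, SE 0.55, adjusted p = 0.000168).

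Protein synthesis and folding were mostly lower in leaf. Of 24 ribosomal proteins 19 were lower and 3 were higher. The lower ones differed by -1.40 to -0.59, against a median of -0.16 over all probe sets, and 16 were lower after median centring; RPS10 gave 9546 and 6893 in leaf, against 15019 and 15861 in root (-0.93, SE 0.17, adjusted p = 0.00212). The 3 higher ones, rpl5, CL18 and CL27, differed by 4.17 (SE 0.32), 3.61 (SE 0.32) and 3.27 (SE 0.22), rpl5 with 5120.2 and 7396 in leaf, against 302 and 354 in root. With only the 4 hybrid arrays in the fit, 6 were lower and 3 higher. In the endoplasmic reticulum, 10 of 12 folding proteins were lower in leaf and 1 was higher, against 4 and 1 after median centring and 0 higher and 5 lower without leaf replicate 2, 0 higher and 3 lower without root replicate 1 and 1 higher and 3 lower without root replicate 2. PDIL2-2, a disulphide isomerase, gave 3587 and 3434 in leaf, against 6606 and 6978 in root (-0.95, SE 0.17, adjusted p = 0.00152).

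Calcium decoding kinases of the CIPK family gave 5 higher and 7 lower of 24, against 4 higher and 3 lower without leaf replicate 2, 4 higher and 4 lower without root replicate 1 and 4 higher and 3 lower without root replicate 2. CIPK31 gave 3948 and 2779 in leaf, against 186 and 216 in root (3.94, SE 0.24, adjusted p = 9.87e-07), and CIPK23, which acts on potassium channels, gave 1356 and 1223 in leaf, against 8369.6 and 9794 in root (-2.80, SE 0.24, adjusted p = 1.13e-05). Over all genes 18.3% were higher and 23.9% were lower, so that counts on both sides set neither these kinases nor the heat shock genes apart. Heat shock genes were divided as well, 7 higher and 13 lower of 43, against 3 higher and 12 lower without leaf replicate 2, 4 higher and 8 lower without root replicate 1 and 3 higher and 5 lower without root replicate 2; the factor HSF03 gave 1638 and 2687 in leaf, against 216 and 171 in root, and HSP81-1, a chaperone of the Hsp90 family, gave 3278 and 4044 in leaf, against 12420 and 13333 in root.

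The hybrid's tissue difference was then set against the mean of the 2 parental tissue differences, in 1 contrast of the same limma model. Of 42974 probe sets, 477 (1.11%) departed from the parental mean at an adjusted p below 0.05, 185 (0.43%) towards leaf and 292 (0.679%) towards root. The count was 68 without root replicate 1 and 104 without root replicate 2, and 1994 and 1414 without leaf replicates 1 and 2. Agglutinin, a mannose-binding lectin, gave 1.7 and 24.1 in F1 leaf, against 7318 and 9477 in F1 root; C bao had 68.5 and 52.3 in leaf, against 77.1 and 51.6 in root, and Jamaica 3.9 and 19.6 in leaf, against 135 and 77.4 in root. The departure was -7.18 (SE 0.59, adjusted p = 0.000963). PM1, a plasma membrane protein of the dehydration list, gave 103 and 341 in F1 leaf, against 19210 and 17872 in F1 root, and the departure was -6.14 (SE 0.57, adjusted p = 0.00141), with -5.34 without leaf replicate 1 and -6.93 without leaf replicate 2. SWEET12 departed by -5.03 (SE 0.76, adjusted p = 0.0134); in Jamaica it had 10.4 and 3.6 in leaf, against 88.6 and 289 in root, and in C bao 1.4 and 22.6 in leaf, against 48.6 and 12.3 in root. The call for SWEET12 was lost without root replicate 1 (-4.98) or root replicate 2 (-5.09). In all of these genes the hybrid's root arrays stood above every root array of the parents.

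Towards leaf, the largest departures were in 2 haemoglobins that bind nitric oxide and are made when oxygen is short. NSHB2 gave 1466 and 1116 in F1 leaf, against 543 and 597 in F1 root. In C bao it gave 456 and 624 in leaf, against 2431 and 3115 in root, and in Jamaica 265 and 167 in leaf, against 15965 and 14409 in root, so that leaf minus root was positive in the hybrid and negative in both parents. The departure was 5.35 (SE 0.31, adjusted p = 0.000167). NSHB1 gave 579.5 and 381 in F1 leaf, against 545 and 482 in F1 root on the probe set with the largest departure (5.19, SE 0.43, adjusted p = 0.000963). Its brightest probe set gave 692 and 158 in F1 leaf, against 2571 and 1621 in F1 root. That probe set was lower in leaf, at -2.55 (SE 0.49, adjusted p = 0.00264 in limma). Its departure of 2.23 (SE 0.60, adjusted p = 0.126 in limma) did not pass. The departure was 1.21 without leaf replicate 1 and 3.24 without leaf replicate 2. BURP16 was higher in leaf in all 3, by 6.79 in the hybrid, 2.95 in C bao and 3.44 in Jamaica. Root transporters were among those with a smaller gap in the hybrid: NRT2.3 differed by -3.06 in the hybrid, -6.44 in C bao and -6.23 in Jamaica, and PTH1-2 by -2.59, -4.78 and -4.70. The departures of NRT2.3 (3.27) and PTH1-2 (2.15) lost their calls without root replicate 1 (3.44 and 2.05) or root replicate 2 (3.10 and 2.24), and that of BURP16 (3.59) without leaf replicate 2 (3.44) or either root replicate (3.35 and 3.83). Over 1 probe set per gene, 123 of 17334 genes (0.71%) departed towards leaf and 195 (1.12%) towards root; 3 of 24 root markers departed towards leaf and 4 of 11 dehydration genes towards root. The root markers that departed numbered 5 without leaf replicate 1, 3 without leaf replicate 2, 0 without root replicate 1 and 0 without root replicate 2, and the dehydration genes 4 without leaf replicate 1, 8 without leaf replicate 2, 1 without root replicate 1 and 1 without root replicate 2.

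**Figure D5:**
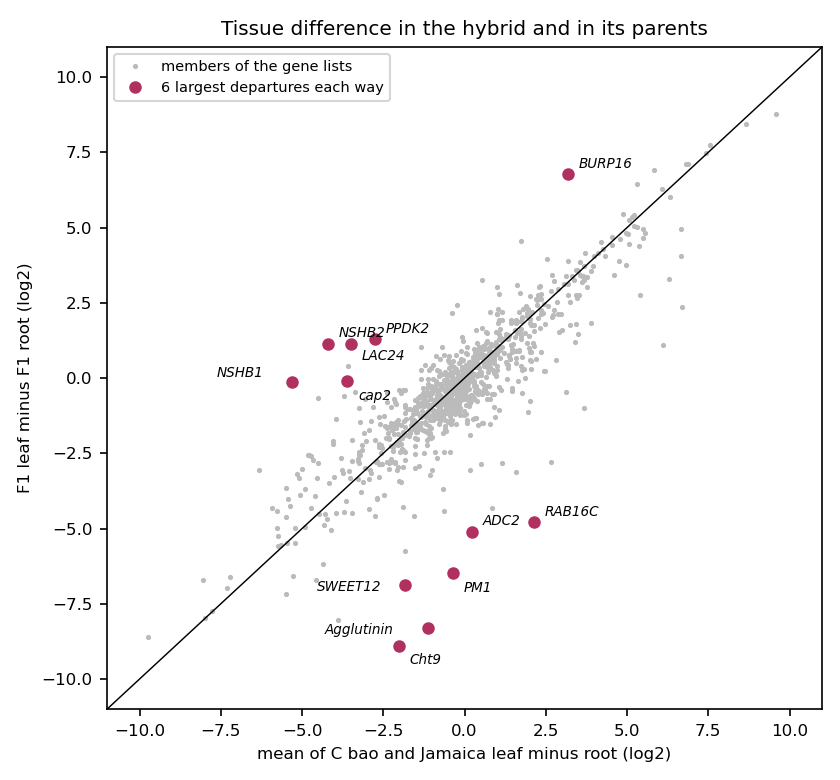
Leaf minus root in the F1 hybrid (y axis, log2) against the mean of leaf minus root in C bao and Jamaica (x axis, log2) for members of the gene lists (grey) and the 6 largest departures in each direction (red); the line marks equal differences. Agglutinin lies at -8.29 in the hybrid, far below the line, and NSHB2, at 1.15, far above it.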

How the data were processed

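RNA of leaf and root was hybridised to 12 Affymetrix rice arrays, 1 per sample, after extraction and one-cycle labelling per the labels' protocols. The deposited intensities are linear signals that the authors made with MAS5, per the submitters' processing notes; no detection calls were used here. From them log2(signal + 16) was computed, and the log2 values are thus computed from the deposited intensities. Probe sets were kept where the mean of at least 1 of 6 groups passed the mean of the arrays' 40th percentiles, which left 42974 of 57258 rice probe sets, and 123 control probe sets were left out. A model with 6 group means over all 12 arrays was fitted in limma 3.58.1 (R 4.3.3; empirical Bayes with a trend, Benjamini-Hochberg adjustment over all probe sets kept), with 6 residual degrees of freedom. An exact permutation test of 2 arrays against 2 cannot pass 0.05 and was not used. The precision is limited by the number of arrays.

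Probe sets were named from GEO's platform annotation, which can be old, with symbols updated through the RefSeq gene table: 22436 had 1 gene, 95 several and 34727 none. That table's assembly served for names and gene order only. Counts over lists took 1 probe set per gene, the one with the highest mean over 12 arrays. Named genes were the 12 largest called differences each way with an informative symbol and both leaf arrays outside both root arrays. Further named genes were up to 6 called members each way of a gene list with their paralogues, and the tissue markers. The 6 largest departures each way from the parental mean were named as well. Hybrid and lists alike were chosen with earlier results of these data known, and list counts are descriptions. The fit was tested on simulated data. Alternatives were quantile normalization, median centring, other constants and filters, the 4 hybrid arrays alone, no trend, robust fitting, array weights, a replicate block, stricter thresholds and leaving out each hybrid array. Same-numbered leaf and root arrays did not deviate together, so no pairing was used. Figures were drawn in Python 3.11.15 with matplotlib 3.10.9.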

Additional observations from a re-analysis of the deposited data

Results flagged for a closer look

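The tissue difference of the hybrid departed from the mean of the parental differences in 477 probe sets, by a contrast in the limma model that tests the difference itself. The 30 genes given first are the 6 largest departures each way among called genes with an informative symbol, and those members that departed among up to 6 called members each way of each gene list. Towards leaf, their departures on the log2 scale were 5.35 for NSHB2 and 5.19 for NSHB1 (haemoglobins; the brightest probe set of NSHB1 stood at 2.23, adjusted p = 0.126 in limma, and was not called), 4.62 for the laccase gene LAC24, 4.05 for PPDK2, 3.59 for BURP16 and 3.49 for cap2. Transporters were NRT2.3 at 3.27, ZIP1 (LOC4326394) at 2.26 and PTH1-2 at 2.15. Towards root, they were -7.18 for Agglutinin, -6.93 for RAB16C, -6.88 for Cht9, -6.14 for PM1, -5.34 for the arginine decarboxylase ADC2 and -5.03 for SWEET12. Other dehydration and stress genes were EM at -4.71, RAB16D at -4.14, R1C-Prx at -3.90, CBF3 at -3.08 and APX8 at -1.70. Transporters and sugar genes were TIP3-1 at -3.25, TPP3 at -3.03 and HAK17 at -2.63. Wall and development genes were CAD6 at -2.39, BC1L9 at -2.22, OSH71 at -2.13 and GA20OX3 at -1.25. Defence genes were JAZ8 at -3.98, RBBI3.3 at -1.69 and WRKY71 at -1.56. Of these 30 genes, 7 kept the call under every alternative other than the stricter thresholds: NSHB2, NSHB1, Agglutinin, Cht9, PM1, JAZ8 and BC1L9. In Cht9 the parents ran opposite ways, 2.22 in C bao and -6.24 in Jamaica, so that their mean describes neither. The same limit holds for PPDK2, at 0.62 in C bao and -6.14 in Jamaica, with 1.29 in the hybrid. LAC24 was uneven as well, at -1.01 in C bao and -5.95 in Jamaica, with 1.14 in the hybrid. In the hybrid itself, leaf minus root did not pass for PPDK2 or LAC24. Another 18 list members departed that this choice does not take in, 8 towards leaf, from 1.32 for YSL12 to 3.09 for OsCASPL1D1, and 10 towards root, from -1.34 for CIPK16 to -5.00 for SWEET1B. Of these 18, 3 kept the call without each of the 4 hybrid arrays: SWEET1B, Cht11 (-4.66) and the sucrose synthase SUS4 (-3.60).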

How the results depend on the processing

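No named gene that was called changed direction under any alternative run, but the medians of the gibberellin, phosphate, potassium, defence and diterpenoid lists changed sign after median centring and are not given. The hybrid's count of 12809 was 8370 with only the 4 hybrid arrays fitted and 8054 at an adjusted p of 0.01, and leaving out 1 hybrid array gave 8133 to 14735. The count of 477 departures from the parental mean was 791 after median centring, 757 with log2(signal + 64), 358 with array weights, 253 with no trend and 120 at an adjusted p of 0.01. It was 199 with the replicate number as a block, and leaving out 1 hybrid array gave 68 to 1994. The stricter threshold holds fewer calls by construction; the cause of the other shifts was not tested. The replicate block left 11656 calls of the hybrid's leaf and root difference; same-numbered arrays did not deviate together (correlation of deviations 0.0158 in the hybrid, 0.00458 in C bao and 0.0128 in Jamaica), so the samples share only a number. After median centring 58.9% of the hybrid's calls were higher in leaf, against 45.0% as reported, and 72.3% of the departures were towards leaf, against 38.8%. Over 336 named or listed genes of the hybrid comparison, 235 kept the call under every alternative other than the stricter thresholds, and 513 single values lost it while 5243 kept direction and call. With no detection calls, signals near the dim end have no order, and 2 arrays a group limit the precision.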
